A study of Mus musculus with 4 samples.

Results

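Regions carrying acetylated lysine 14 of histone H3 (H3K14ac) on mouse chromosome 15 were examined in C3H10T1/2 cells, an established mesenchymal stem cell line from C3H mouse embryos. The regions are all entries of the deposited peak lists that lie on chromosome 15. They numbered 1468 of 10395 in cells with a non-target control and 1702 of 18438 in cells with Nap1l2 knockdown, that is 3170 of 28833 in both lists. Chromosome 15 was chosen by the number of regions it holds, since it was the densest autosome in both lists, so its density, spacing and share of the lists are given as a description. The study set 4 samples in 4 groups of 1: an H3K14ac ChIP library and an input library from control cells, and the same from cells given a lentiviral Nap1l2 shRNA. Control cells are called WT in the sample titles and non-target control in the treatment label. Both groups are the same cell line, and the labels name no other agent. With 1 library per group there was no replicate check on any difference. The intervals below are 95% intervals that cover counting error only, and sequenced tags are PCR products without molecular identifiers.

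H3K14ac is set by acetyltransferases such as the GCN5/PCAF and MYST families and is read by bromodomain proteins. It is commonly found at promoters and enhancers of active genes, together with other acetylated lysines of histone H3. NAP1L2 belongs to the nucleosome assembly proteins, which carry histones to and from DNA. A ChIP peak caller compares tags in the ChIP library with a local background from the input library, so a stretch of DNA present in additional copies gives more tags in both libraries. Cultured mouse cell lines often carry extra or missing chromosomes.

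The regions rarely touched annotated transcript starts, and sequences under those that did are shown because promoters are the only bases of the regions that the reference tables hold. Of 761 chromosome 15 genes with a listed promoter (250 bases before to 50 after the start, RefSeq, GRCm38.p6), 4 promoters were overlapped in the control (0.526%) and 6 in the knockdown (0.788%), against 0.160% and 0.220% of the promoters on the other 18 autosomes. The runs of all 3 protein-coding genes and the 3 longest runs of non-coding genes are printed, whereas the other 4 genes, all long non-coding RNAs with shorter runs before the start, are not. The promoter bases inside the region and before the start are written 5′ to 3′ along the strand of the gene, with each CG dinucleotide in capitals. Mb encodes the oxygen-binding muscle protein myoglobin, and its listed promoter on the minus strand was overlapped at chr15:77050721-77050918 in the knockdown. Hdac7 encodes a class IIa histone deacetylase, and a promoter listed for it on the minus strand was overlapped at chr15:97814949-97815113 in the knockdown. That region lay inside the gene and not within 2 kb of either gene end. Olfr288 encodes an olfactory receptor, and its listed promoter on the minus strand was overlapped at chr15:98195705-98195792 in the knockdown. Gm34201, Gm3787 and Gm52188 are annotated long non-coding RNAs, overlapped at chr15:84627444-84627608 (minus strand, control), chr15:77376913-77377127 (minus strand, control) and chr15:78686841-78687085 (plus strand, knockdown).
Mb: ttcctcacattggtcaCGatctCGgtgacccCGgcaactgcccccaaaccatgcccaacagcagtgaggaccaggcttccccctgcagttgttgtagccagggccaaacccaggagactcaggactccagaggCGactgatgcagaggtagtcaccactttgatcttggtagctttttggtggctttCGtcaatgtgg
Hdac7: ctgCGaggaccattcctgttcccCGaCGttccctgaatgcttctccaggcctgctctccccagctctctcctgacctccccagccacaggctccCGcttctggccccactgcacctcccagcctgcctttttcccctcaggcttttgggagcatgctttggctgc
Olfr288: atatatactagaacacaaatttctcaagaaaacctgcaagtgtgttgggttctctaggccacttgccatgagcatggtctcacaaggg
Gm34201: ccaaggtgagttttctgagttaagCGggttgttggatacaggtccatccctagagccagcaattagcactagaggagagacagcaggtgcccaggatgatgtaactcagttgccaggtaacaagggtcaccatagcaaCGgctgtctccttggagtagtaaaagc
Gm3787: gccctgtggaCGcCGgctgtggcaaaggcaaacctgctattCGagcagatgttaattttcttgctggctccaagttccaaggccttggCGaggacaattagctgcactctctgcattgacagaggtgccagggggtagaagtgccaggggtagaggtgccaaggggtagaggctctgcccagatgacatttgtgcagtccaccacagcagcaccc
Gm52188: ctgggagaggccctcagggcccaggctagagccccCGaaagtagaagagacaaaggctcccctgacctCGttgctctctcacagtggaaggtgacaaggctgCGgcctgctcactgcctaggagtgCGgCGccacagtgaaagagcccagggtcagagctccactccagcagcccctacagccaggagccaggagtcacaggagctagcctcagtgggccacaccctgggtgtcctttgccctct
These runs held 5, 4, 0, 2, 4 and 5 CG dinucleotides, respectively. The letters searched were CG, which read the same on both strands. None of the 10 overlapped genes had a promoter with 10 or more CG (0 of 10), whereas 344 of all 761 chromosome 15 genes did (45.2%). The share was also low on the other autosomes, at 10 of 95 overlapped genes (10.5%) against 44.5% of all genes. The regions over Mb and Hdac7 were low, with 11 and 9 ChIP tags at the summit, and the highest of the 6 was that over Gm52188 with 19 tags. None of the 35 annotated miRNA hairpins of the chromosome lay under a region in either list. The nearest hairpins were Mir6956, 0.173 kb from a control region, and Mir6393, 0.324 kb from a knockdown region.

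Chromosome 15 held 14.1% of all control regions (interval 13.5 to 14.8) and 9.23% of all knockdown regions (8.82 to 9.66). Over its span of 100.9 Mb the control density was 14.6 regions per Mb and the knockdown density 16.9. The other 18 autosomes together held 3.79 and 7.07 regions per Mb, so the density ratio was 3.84 (3.63 to 4.06) in the control and 2.39 (2.27 to 2.51) in the knockdown. The next densest autosomes were chromosome 17 in the control, with 6.86 per Mb, and chromosome 10 in the knockdown, with 10.999. The chromosome is not rich in genes: its 7.69 protein-coding genes per Mb ranked 11 of 19 autosomes. Counted per 100 protein-coding genes, it held 189 control and 219 knockdown regions, and the next highest autosomes held 94.99 (chromosome 12) and 181 (chromosome 18).

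**Figure D1:**
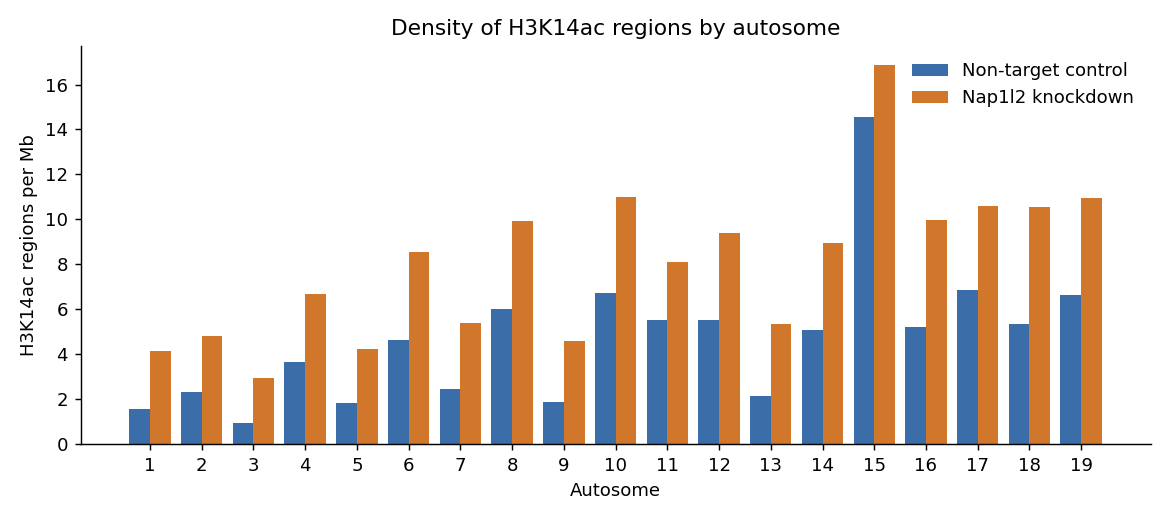
H3K14ac regions per Mb of span (vertical axis) on each of the 19 autosomes (horizontal axis) in the non-target control and the Nap1l2 knockdown, 1 ChIP library each. Chromosome 15 stands at 14.6 and 16.9 regions per Mb, above the next autosomes at 6.86 and 10.999.

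Between the full lists, which are of unequal size, the number of regions differed less on chromosome 15 than elsewhere. The knockdown list held 1.16 times the control regions on chromosome 15 (1.08 to 1.24), the lowest ratio of the 19 autosomes, and 1.87 times on the other autosomes together (1.82 to 1.91). The next lowest ratio was 1.46 on chromosome 11, and the highest was 3.08 on chromosome 3. When the knockdown list was cut to the number of control entries by its −log10 p, it held 971 chromosome 15 regions, 0.661 times the control number, and 1.06 times the control number on the other autosomes. Both the direction of the difference on chromosome 15 and whether it was smaller than elsewhere therefore depended on the size of the list. The ratio on chromosome 15 stayed below that of the other autosomes at either size. The chromosome 15 share of the knockdown list was 9.23% in full and 9.34% when cut, and its density ratio was 2.39 in both. The library number of the control ChIP belongs to a different numbering than those of the other 3 libraries, and a batch cannot be told apart from the group.

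Counts were raised along most of the chromosome. In the 19 full bins of 5 Mb, the control counts ran from 21 to 131 with a median of 70, and the 443 full bins of the other autosomes had a median of 15 (quartiles 7 and 27, highest 113 on chromosome 11). All 19 control bins lay above that median and 17 lay above the upper quartile. In the knockdown the 19 bins ran from 26 to 125 with a median of 86, against a median of 30 in the other bins (quartiles 19 and 50, highest 108 on chromosome 18). There 18 of 19 bins lay above the median and 17 above the upper quartile. The exception was the bin from 15 to 20 Mb, a stretch with 2 protein-coding genes, which held 26 knockdown regions and 27 control regions.

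In the control the densest stretch was the 4 bins from 70 to 90 Mb, picked for holding more than 100 control regions each. They held 113, 122, 131 and 105 control regions and 114, 107, 125 and 93 knockdown regions. In the knockdown the bin just before them held 105 regions, more than the last of them. The 20 Mb of these 4 bins contained 471 control regions (32.1% of the chromosome) and 439 knockdown regions (25.8%), or 23.6 and 22.0 per Mb. The other bins held 11.7 and 14.9 per Mb, values lowered by counting the partly covered first and last bins at their full 5 Mb. The 4 dense bins also contained 341 of the 776 protein-coding genes of the chromosome. The lowest full bin of the control was that from 45 to 50 Mb, with 21 regions, 41 knockdown regions and 2 genes. Without the 4 dense bins the density ratio to the other autosomes was 3.25 in the control and 2.21 in the knockdown.

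**Figure D2:**
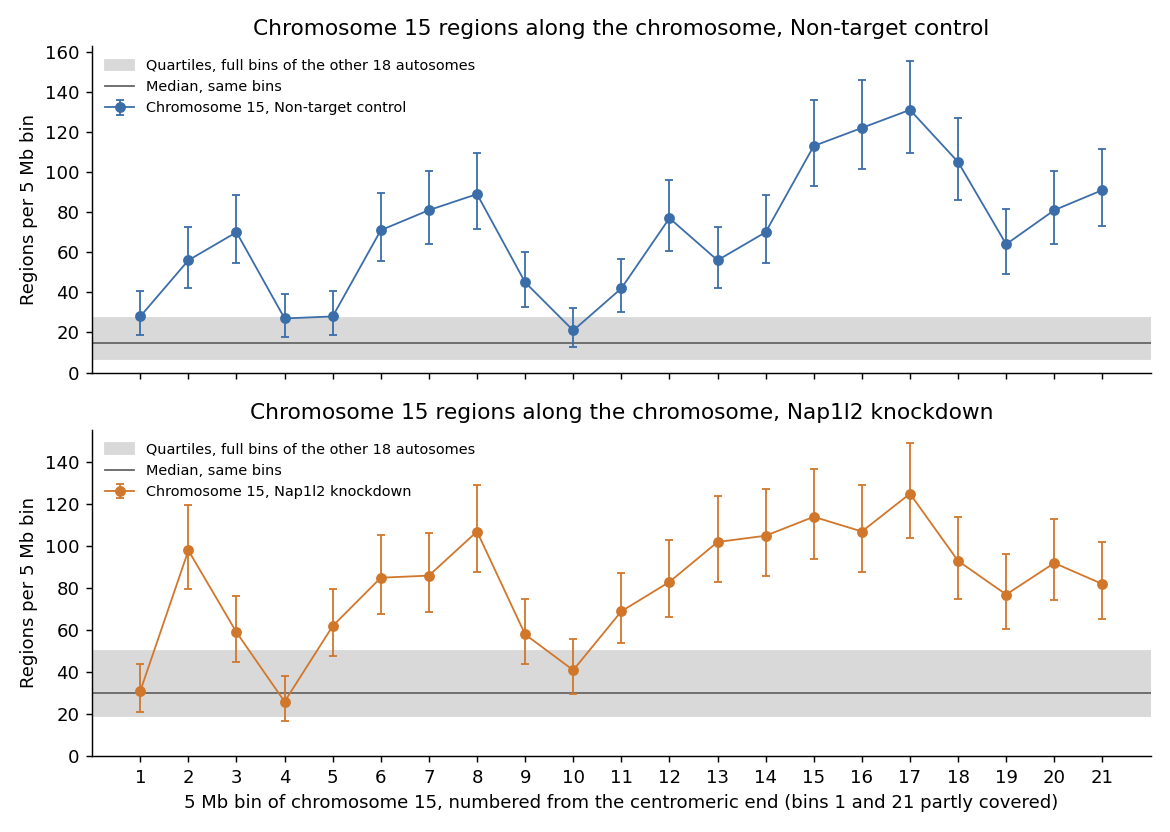
Regions per 5 Mb bin (vertical axis) along chromosome 15 by bin number (horizontal axis), with exact Poisson 95% intervals, for the control (top) and the knockdown (bottom). Grey bands are the quartiles and lines the median of 443 full bins on the other autosomes; 19 of 19 full control bins and 18 of 19 full knockdown bins lie above the median, and bins 15 to 18 hold the control maximum of 131.

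Across the 19 full bins the control and knockdown counts rose and fell together (Pearson r 0.819, Spearman rho 0.794), as they did over the 443 bins of the other autosomes (0.887 and 0.897). Both lists share the sequence of each bin, and each was called against its own input. Taken one by one, the other 18 autosomes had rho from 0.162 to 0.969 between the lists. Control counts followed the number of protein-coding genes in the bin (r 0.764, rho 0.884), and the other autosomes taken one by one had rho from 0.0435 to 0.735. The knockdown values were 0.552 and 0.679, with rho from -0.328 to 0.728 on the others, among which chromosome 15 ranked 4 of 19. These are descriptions over 19 neighbouring bins of 1 library per group.

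Regions on chromosome 15 stood on more input DNA than regions elsewhere. For each entry the ChIP tags at the summit and the background could be recovered from the deposited fold enrichment and p-value. MACS2 takes as background the largest of a genome-wide level, the input pileup of one fragment at the site, and the average input in a window of 1 or 10 kb around it. Among the chromosome 15 regions 77.7% had a background above the genome-wide level in the control (75.4 to 79.8, 50.2% in the whole list) and 62.0% in the knockdown (32.9% in the whole list). On the other autosomes the shares were 45.7% and 30.2%. The window of 1 to 10 kb set the background of 52.9% of the chromosome 15 regions in the control and 42.3% in the knockdown, against 22.6% and 16.99% elsewhere. Chromosome 15 had the highest such share of the 19 autosomes in both lists, ahead of chromosome 11 with 30.3% in the control and chromosome 10 with 23.7% in the knockdown. The share set by the single-fragment input pileup was closer to that elsewhere, at 24.7% against 23.1% in the control and 19.7% against 13.2% in the knockdown. By this share chromosome 15 ranked 5 of 19 in the control but 1 of 19 in the knockdown, ahead of chromosome 11 with 16.2%.

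**Figure D3:**
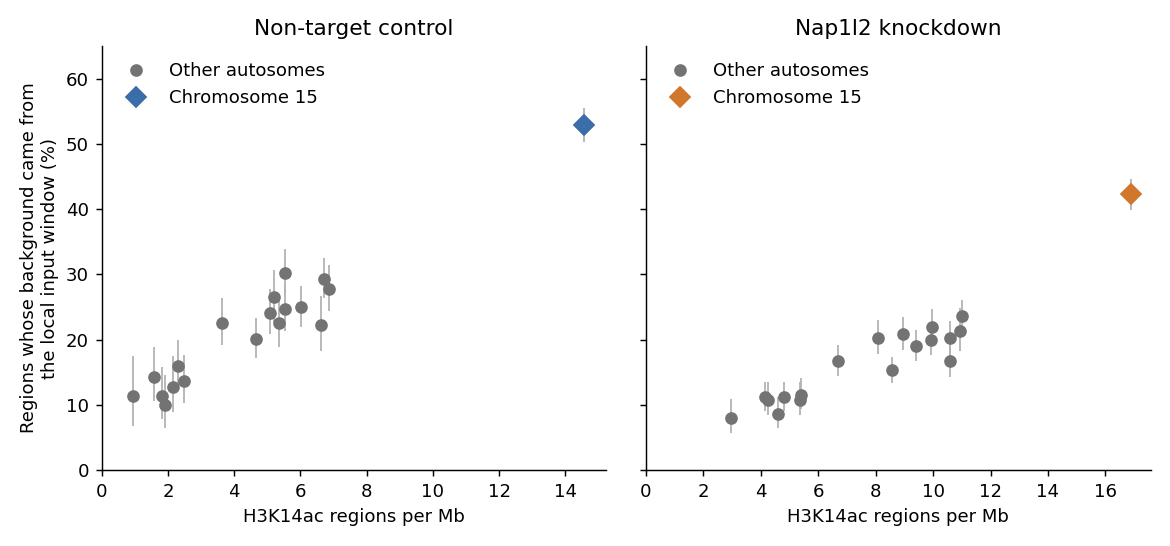
Share of regions whose background was set by the local input window of 1 to 10 kb (vertical axis, percent, with exact 95% intervals) against regions per Mb (horizontal axis), 1 point per autosome, in the control (left) and the knockdown (right). Chromosome 15 lies at 52.9% and 42.3%, and the other autosomes lie at 30.3% or below and at 23.7% or below.

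The share of regions with a raised background was compared bin by bin. The share above the genome-wide level exceeded the median bin of the other autosomes in 19 of 19 control bins and 18 of 19 knockdown bins, the exception being the bin from 15 to 20 Mb with 23.1% against 24.1%. In all 19 full bins of both lists, the share of regions set by the local window exceeded the median bin of the other autosomes (15.6% in the control, 12.8% in the knockdown), with a range of 25 to 64.1% and of 19.2 to 62.4%. Where that window set the background, its input was scaled to tags per 10 kb, also for windows of 1 kb that hold few tags. In the control the scaled median was 110 input tags on chromosome 15 and 103 on the other autosomes, against a genome-wide level of 91.3. The knockdown values were 93 and 90 tags against a genome-wide level of 77.3. The chromosome 15 medians were thus 1.205 and 1.204 times the genome-wide level, and those of the other autosomes 1.129 and 1.165 times. These windows were picked by the peak caller for being above the level, so the ratios are no estimate of copy number. At the other end, 328 control and 646 knockdown regions of chromosome 15 kept the genome-wide level, so no window around them was above it.

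Chromosome 15 and the other autosomes were also compared within each class of background, a split that itself follows from the input. Counting regions at the genome-wide background alone, chromosome 15 held 1.58 times the density of the other autosomes in the control (1.41 to 1.77) and 1.297 times in the knockdown (1.196 to 1.404). Among regions with a raised background the ratios were 6.52 (6.10 to 6.96) and 4.90 (4.58 to 5.24). With the genome-wide background alone chromosome 15 was no longer the densest autosome, ranking 2 of 19 in the control behind chromosome 19 and 5 of 19 in the knockdown, where chromosome 18 led. Along chromosome 15 the bins with many regions were also those with a high share set by the local window (r 0.858 and rho 0.868 in the control, 0.732 and 0.643 in the knockdown, 19 bins), as over the bins of the other autosomes (0.586 and 0.596 in 437 control bins with regions, 0.618 and 0.592 in 443 knockdown bins). Input was seen at listed regions alone, so these values do not describe the coverage of whole bins or chromosomes. Whether the chromosome is present in extra copies was not tested, because input tags outside the listed regions were not analysed here.

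Individual regions on chromosome 15 were narrow and close to the limit of detection, as elsewhere. The median width was 209.5 bp in the control (range 165 to 813) and 216 bp in the knockdown (165 to 857), against 198 and 205 bp on the other autosomes. Regions of at least 400 bp made up 4.50% and 4.88%, against 2.80% and 3.86% elsewhere, and ranked 1 of 19 in the control but 4 of 19 in the knockdown, where chromosome 16 led with 5.51%. Both lists had a median of 13 ChIP tags at the summit, against 13 and 12 elsewhere, and the highest summits reached 29 control tags and 37 knockdown tags. Summits of at least 16 tags made up 20.6% of the control and 19.6% of the knockdown regions, against 14.2% and 11.9% elsewhere. The median fold enrichment over the background was not higher: 3.14 against 3.28 in the control and 3.17 against 3.17 in the knockdown. A region on a higher background needs more tags to pass the same p-value limit, so tags and background are linked by the way regions were called.

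The density ratio rose with the number of tags. It was 2.70 in the control (2.38 to 3.06) for regions of 11 tags or fewer and 6.14 (4.32 to 8.58) for the 45 regions of 20 tags or more. The knockdown ratio was 1.67 (1.52 to 1.83) for the former and 4.12 (3.20 to 5.26) for its 78 regions of the latter kind. The ratio was lower in the knockdown than in the control in each of the 5 tag classes. The deposited −log10 q, which adjusts for the number of positions tested, reached 1.3 in 21 control regions of chromosome 15 (1.43%, with 1.08% in the whole list) and 47 knockdown regions (2.76%, with 2.01% in the whole list).

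**Figure D4:**
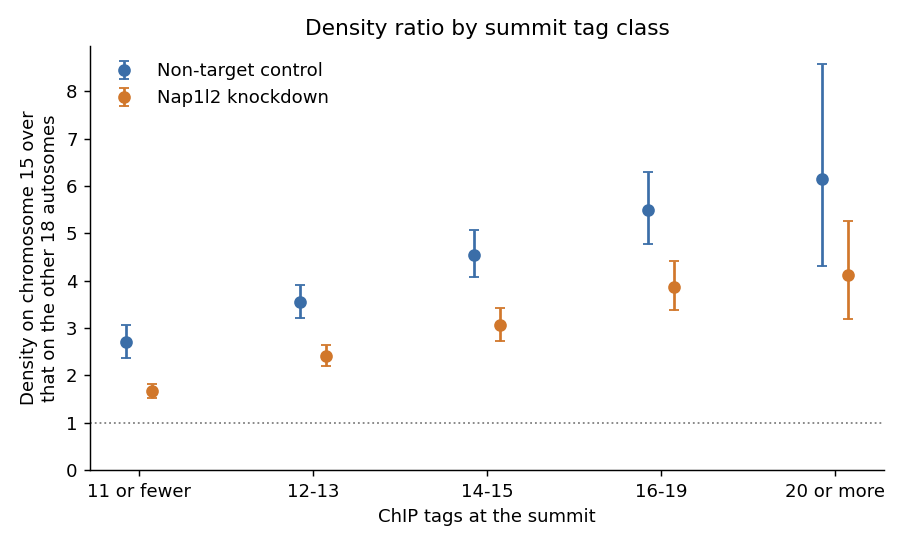
Density of regions on chromosome 15 over that on the other 18 autosomes (vertical axis, with 95% intervals from counts) by ChIP tags at the summit (horizontal axis) in both lists. The control ratio runs from 2.70 to 6.14 and the knockdown ratio from 1.67 to 4.12, all above the dotted line at 1.

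Neighbouring control regions lay a median of 34.0 kb apart and neighbouring knockdown regions 35.7 kb, against 107 and 67.9 kb on the other autosomes. Distances under 10 kb made up 20.1% and 20.7% on chromosome 15, against 9.51% and 12.2% elsewhere. The median was 0.495 and 0.602 of the mean distance, beside 0.406 and 0.480 for the other autosomes together, which differ among themselves in density. Per chromosome the median of that quotient was 0.493 and 0.541, so the spacing on chromosome 15 was shorter without being more clustered than that of a typical autosome in the control. The longest control gap was 1537 kb, between chr15:19329919-20866503, and contained 1 protein-coding gene, Acot10. In the knockdown the longest gap was 939 kb, at chr15:14427572-15366508, with no protein-coding gene inside.

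**Figure D5:**
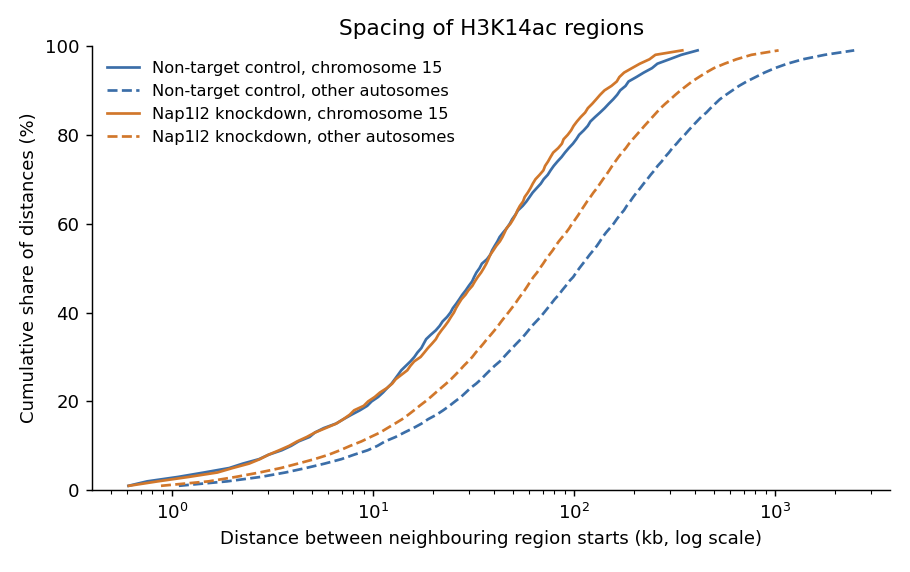
Cumulative share of distances between starts of neighbouring regions (vertical axis, percent, percentiles 1 to 99) against the distance in kb (horizontal axis, log scale). The chromosome 15 curves of both lists lie together, with medians of 34.0 and 35.7 kb, to the left of those of the other autosomes at 107 and 67.9 kb.

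Few regions were found at the same place in both lists. On chromosome 15, 37 pairs overlapped by at least 1 bp, which is 2.52% of its control regions (2.17% in the whole list) and 2.17% of its knockdown regions (1.23% in the whole list). On the other autosomes the shares were 2.11% and 1.132%. Allowing a distance of 1 kb, the chromosome 15 shares were 7.02% and 6.35%, against 5.50% and 2.95% elsewhere. The more regions a chromosome holds, the more of them overlap without any link between the lists, and no expectation was computed here. The 37 overlaps measured 4 to 350 bp with a median of 158 bp, and the summits lay a median of 131 bp apart. In 8 of the pairs both summits held at least 16 tags, 18 pairs lay in the body of a protein-coding gene, and 16 lay in the 4 dense bins.

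Most shared regions of highest summed −log10 p named here lay in the dense bins, but not those nearest to Ncald, Prickle1, Klf10 or Stk3. The strongest lay at chr15:84110785-84111180 in the control and chr15:84110543-84111021 in the knockdown, near Pnpla5, a gene of the patatin-like lipase family, with 16 and 31 tags. Next were a pair in Apol9a with 19 and 23 tags and a pair near Apol11b with 25 and 21 tags, both from the apolipoprotein L cluster. Inside genes, pairs lay in Mpped1 (21 and 16 tags), in Ncald, a neuronal calcium sensor (18 and 28), in Prickle1, a planar cell polarity gene (19 and 19), and in Cacna1i, a T-type calcium channel (20 and 23). Other pairs lay 8.87 kb from Ly6c1 with 22 and 25 tags, 41.8 kb from the Hippo kinase gene Stk3 with 14 and 18 tags, and 88.2 kb from Klf10 with 14 and 26 tags. Over all 37 pairs the knockdown summit held more tags in 21, the control summit in 12, and 4 pairs had equal tags, with a median of 14 tags in both lists and no scaling for depth.

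Among the strongest regions of each list named here, those near Apol11b in the control and near Pnpla5 in the knockdown were shared. Over the whole chromosome 2.52% of control and 2.17% of knockdown regions were shared. In the control the highest −log10 p was 10.0 at chr15:3159182-3159441, with 26 tags, 111 kb from Selenop, which encodes a selenium transport protein. It was followed by regions in Mb (22 tags), near Apol11b (25 tags), 37.9 kb from Osr2, a transcription factor of limb and palate development (24 tags), and in Trappc9, a subunit of a vesicle tethering complex (21 tags). The region in Trappc9 tied in −log10 p, at 8.09, with one 0.313 kb from Ly6c1 and one in the sodium channel gene Scn8a, each with 20 tags. In the knockdown the highest value was 12.6, at the region near Pnpla5 already described. It was followed by a region of 761 bp in Zfp641, a zinc finger gene, with 31 tags. Further strong knockdown regions lay 60.5 kb from Ppara, a fatty acid receptor, with 25 tags, 3.86 kb from the phosphatase gene Ptp4a3 with 26 tags, and 4.81 kb from Gdnf, a neurotrophic factor, with 24 tags.

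Regions on chromosome 15 were placed relative to genes much as regions elsewhere. In the control 44.1% lay in the body of a protein-coding gene, against 44.9% on the other autosomes and 44.4% in the whole list, and in the knockdown 41.5%, against 41.5% and 41.2%. Within 2 kb of a gene end lay 87 control regions (5.93%, with 5.85% in the whole list) and 101 knockdown regions (5.93%, with 5.15% in the whole list). Gene ends stand for both the start and the end of a gene, because the gene table gives no strand. Counting windows of 2 kb at the listed transcript starts alone, the shares were 2.59% in the control and 2.41% in the knockdown. The table gives neither exons nor introns, so a region in a gene body was not assigned to either.

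Of the 776 protein-coding genes on the chromosome, 284 held a control region in their extent or within 2 kb (36.6%, with 13.2% over all chromosomes) and 295 held a knockdown region (38.0%, with 18.9%). On the other autosomes 12.7% and 18.6% of genes did. A total of 186 genes held regions of both lists, which is 65.5% of the control genes and 63.1% of the knockdown genes, although the regions themselves rarely coincided. On the other autosomes the genes of both lists made up 55.5% and 37.9%. The more genes of a chromosome hold a region, the more hold both without any link between the lists, and no expectation was computed here. Longer genes held more regions (Spearman rho 0.656 over 776 genes, both lists summed). The 5 genes with most regions were all long: Trappc9 with 16 control and 21 knockdown regions, Ctnnd2 with 16 and 18, Ncald with 13 and 17, Tbc1d22a with 14 and 10, and Samd12 with 5 and 15, where Slc2a13 equalled the last in sum with 9 and 11. Ctnnd2 encodes a neuronal catenin, and Slc2a13 a proton-coupled inositol transporter.

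Genes of known function were grouped with earlier results of these data known, and each group is set beside the 36.6% and 38.0% of all chromosome 15 genes. Of 28 skeletal and osteogenic genes, 12 held a control region, 15 a knockdown region and 10 both. Ext1, a heparan sulfate polymerase whose loss gives exostoses, held 3 control and 5 knockdown regions, and Adamts12, a matrix protease gene, held 5 and 6. Vdr, the vitamin D receptor, held 1 and 3, and Col2a1, the cartilage collagen, 1 and 1. Wnt10b, an osteogenic Wnt ligand, held 1 and 2, of which 1 pair was shared. Osmr, the oncostatin M receptor, held 0 and 3, while Trps1, a zinc finger repressor of cartilage, held 2 and 0. Sp7, the osterix transcription factor that osteoblasts require, held none, and its nearest regions were 6.402 kb off among control regions and 44.8 kb off among knockdown regions. Tnfrsf11b, the decoy receptor osteoprotegerin, and Atf4 also held none.

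Chromosome 15 carries Myc, an oncogene that lies in gains of this chromosome in mouse tumours. Myc itself held no region, and the nearest control region was 47.1 kb off and the nearest knockdown region 20.6 kb. Pvt1, the long non-coding RNA gene beside it, held 1 control region with 10 tags and 4 knockdown regions with 9 to 12 tags, none of them shared. Of 12 protein-coding genes of the Myc neighbourhood, 5 held control regions, and the same 5 held knockdown regions: Nsmce2 (7 and 2), Mtss1 (7 and 5), Adcy8 (3 and 9), Asap1 (3 and 5) and Cyrib (1 and 5). These are the 5 longest genes of the group, of which Cyrib is the shortest at 132 kb, whereas Tatdn1, the longest of the others, spans 43.6 kb. The bin from 60 to 65 Mb that contains Myc held 56 control regions, below the chromosome's median bin of 70, and 102 knockdown regions, above its median of 86.

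Clustered gene families held regions in part of their members. Their genes are short, with median lengths of 5.10 kb (Hoxc), 8.27 kb (keratins) and 3.87 kb (Ly6) against 18.2 kb for all genes of the chromosome, and region number rose with length. Among their genes with any region, 1 of 6, 4 of 16 and 3 of 11 held both lists, beside 186 of 393 for the chromosome. In the Hoxc cluster, which sets position along the body axis, 3 of 9 genes held a control region and 4 a knockdown region, with Hoxc10 in both. Of 23 keratin genes found of 25 listed, which encode epithelial intermediate filaments, 10 held a control region and 10 a knockdown region, but 4 held both. Krt78 held 5 control regions and no knockdown region. One region in Krt78 had 29 tags, the highest control summit of the chromosome, over an input background of 7 tags, so its fold enrichment was 2.31. Of 18 genes of the Ly6 family, small surface proteins on a GPI anchor, 8 and 6 held a region and 3 held both. Several Ly6 genes are close copies of one another, and how tags were shared between copies is not stated in the sources used here.

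Genes of chromatin and cohesin were hit least, at 2 of 17 in the control and 4 of 17 in the knockdown. Ep300, the acetyltransferase p300, held none, with the nearest regions 46.8 and 26.4 kb away, and Nipbl, Rad21 and Kmt2d held none either. Hdac7 held 0 control and 4 knockdown regions, among them the one over the listed promoter inside the gene shown above. The Polycomb gene Cbx7 held 1 and 2. Of 13 matrix and adhesion genes, 10 held a control region, 10 a knockdown region and 9 both, with the collagen gene Col22a1 at 8 and 11 and Col14a1, another collagen gene, at 5 and 3. Ncald had been listed with them and was left out after its values were seen, as it encodes a calcium sensor, and with it the counts were 11, 11 and 10 of 14. Itga5 and Itgb7, which encode integrins, held none. Of 6 cadherin and catenin genes, 5 held a control region and 6 a knockdown region, and Cdh12 alone held 6 and 13 over 1150 kb. Of 8 cytokine receptor genes, 6 held a region in each list, with Prlr, the prolactin receptor, at 9 and 3. Of 3 complement genes 1 and 2 were hit, C6 with 1 and 4 regions. Per 100 kb of gene length the chromatin genes held 0.410 control and 1.23 knockdown regions, the cadherins 0.968 and 1.26, and the matrix genes without Ncald 1.83 and 1.92. By the same measure the skeletal and osteogenic genes held 1.06 and 1.60, the keratins 4.62 and 2.52, and the Ly6 genes 4.60 and 4.60. Over its whole span the chromosome held 14.6 control and 16.9 knockdown regions per Mb, or 3.14 per 100 kb with both lists summed. That sum is not comparable with the group values, which are per list. Over all lists, 60 of 134 genes held a control region, 65 a knockdown region and 42 both.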

How the data were processed

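The members and gene groups were chosen with earlier results of these data known. Per the submitters' processing notes, the build was mm10 and the tools were BWA 0.7.13, Picard 1.126 and MACS2 2.1.0. Per the file names, read pairs were made single-end tags, duplicates were removed, each ChIP was called against its own input at a p-value limit of 0.01, and the lists were filtered. The deposited columns hold positions, a fold enrichment (a ratio), −log10 p-values, −log10 q-values and a score, 1 library per list. Summit tags and background were recovered by solving the Poisson p-value and fold for whole tags (tolerance 0.0002 tags of pileup, 100% solved). This was tested on simulated entries. Control and knockdown libraries had a mean pileup of 1.51 and 1.27 tags (input) and of 2.50 and 2.26 tags (ChIP). Shares carry exact Clopper-Pearson, counts exact Poisson and ratios exact conditional binomial 95% intervals, for counting error only. No test between groups was made, as each had 1 library. Genes and promoters came from RefSeq tables of GRCm38.p6, which name 776 protein-coding genes on the chromosome and promoters of 422 of them. Named genes were those of the groups with a region, those under or nearest to the 5 strongest regions per list, the 5 with most regions, those at the 10 strongest shared regions, and Myc, Pvt1 and Sp7; genes at promoters, gaps and at distances without a region were named after their values were seen. Python 3.11.15, pandas 2.3.3, scipy 1.17.1 and numpy 2.4.6 were used.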

Additional observations from a re-analysis of the deposited data

How the results depend on the processing

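Lists were recomputed under stricter limits and other definitions, and values outside the counting interval of the reported value (for counts, beyond 1.5 times) are given here, control first. The density ratio stayed above 1 under every alternative run. The chromosome was chosen for its density in these same lists, so this is a description and no independent check. The knockdown to control ratio on the chromosome fell below 1 with equal numbers of entries, to 0.661. With −log10 p limited to 3 or more, the share of the list was 13.2% in the control, the density ratio was 3.54 in the control, the share above the genome-wide background was 69.3% and 58.2%, the median spacing was 48.9 and 53.9 kb, the regions numbered 1122 in the knockdown and the knockdown to control ratio was 1.07. With at least 5, the share of the list was 13.2% and 11.3%, the density ratio was 3.55 and 2.95, the share above the genome-wide background was 67.7% and 71.1%, the median spacing was 303 and 229 kb, the regions numbered 195 and 235, the shared share was 0% and 0%, the genes with a region numbered 70 and 71 and the knockdown gene body share was 37.0%. At −log10 q values of 1.3 or more, the share of the list was 18.8% and 12.7%, the density ratio was 5.44 and 3.39, the share above the genome-wide background was 81.0% and 80.9%, the median spacing was 2278 and 1109 kb, the regions numbered 21 and 47, the knockdown to control ratio was 2.24, the shared share was 0% and 0%, the genes with a region numbered 14 and 19, the gene body share was 52.4% and 36.2% and the gene end share was 23.8% and 8.51%. With a fold enrichment of at least 4, the share of the list was 12% and 10.4%, the density ratio was 3.18 and 2.71, the share above the genome-wide background was 56.2% and 66.2%, the median spacing was 419 and 299 kb, the regions numbered 144 and 201, the knockdown to control ratio was 1.396, the shared share was 0% and 0%, the genes with a region numbered 58 and 67, the gene body share was 35.8% in the knockdown and the gene end share was 7.64% and 7.46%. With at least 12 tags, the share of the list was 15.5% and 11.1%, the density ratio was 4.26 and 2.91, the share above the genome-wide background was 81.0% and 71.9%, the median spacing was 39.7 and 47.8 kb and the knockdown to control ratio was 1.01. With at least 16 tags, the share of the list was 19.3% and 14.4%, the density ratio was 5.57 and 3.92, the share above the genome-wide background was 89.8% and 88.6%, the median spacing was 156 and 153 kb, the regions numbered 303 and 333, the genes with a region numbered 109 and 103, the gene body share was 48.5% in the control and the gene end share was 8.25% and 4.204%. With regions at the genome-wide background only, the share of the list was 6.34% and 5.22%, the density ratio was 1.58 and 1.297, the median spacing was 186 and 95.5 kb, the regions numbered 328 and 646, the knockdown to control ratio was 1.97, the shared share was 0.305% and 0.155%, the genes with a region numbered 103 and 141, the gene body share was 41.5% and 34.7% and the gene end share was 4.80% in the knockdown. With the knockdown list cut to the number of control entries, the share above the genome-wide background was 51.7% in the knockdown, the median spacing was 64.6 kb in the knockdown, the regions numbered 971 in the knockdown, the knockdown to control ratio was 0.661 and the shared share was 1.63% in the control. The density ratio was 2.12 and 1.53 against the densest other autosome, 2.99 and 2.03 against the median one, 4.32 and 2.68 per protein-coding gene and 3.25 and 2.21 without the 4 dense bins. The shared share was 1.23 and 1.06% where the overlap covered 50% of both regions and 7.02 and 6.35% within 1 kb. The gene end share was 2.38 and 2.94% with windows of 1 kb, 15.2 and 12.3% with 5 kb and 2.59 and 2.41% at listed transcript starts. A share of 0 among 195 and 235 regions allows up to 1.54% and 1.28% by 3 counts of the total, and 1.87% and 1.56% by the upper Clopper-Pearson limit. Merging entries within 1 kb, leaving out the densest 5 Mb bin, counting gene extents alone, and bins moved by 2.5 Mb or of 2.5 or 10 Mb changed no value beyond these bounds. The transcript starts and the removal of the dense bins were chosen after seeing the data. The cause of these changes was not tested, except that stricter limits leave fewer regions. No paired analysis was possible because the groups held single libraries, and leaving out a library was not possible for the same reason. Depth limited what could be listed: a region at the genome-wide background needed at least 9 control or 8 knockdown tags.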
